A study of Rattus norvegicus with 4 samples.

Results

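The Ras and Raf pathway core genes analysed here were the small GTPases *Hras* and *Nras*, the kinases *Araf* and *Braf*, the exchange factor *Sos1*, the GTPase-activating protein *Nf1*, the scaffold *Shoc2* and the phosphatase *Ptpn11*. They were chosen by their gene names, and 8 of 8 were found among the 34773 genes of the count table. All 8 passed the filter on low counts, which kept 15028 genes. Poly(A) RNA was sequenced from 4 libraries of rat embryonic stem cells (ESCs). One library was labelled WT and came from DA-5-3GFP, a rat ESC line carrying the *Rex1*-GFP reporter. The other 3 were labelled *Thop1*-KO and came from separate subclones of that line, #1, #2 and #3, in which Cas9 had been used to disrupt *Thop1*, the gene of a zinc metallopeptidase. All 4 libraries therefore shared the reporter, whereas the subclones alone had passed through transfection with the *Thop1* sgRNA, puromycin selection and subcloning, so an effect of the deletion and an effect of that handling cannot be told apart. The study's methods put its cells on feeders with LIF, CHIR99021 and PD0325901, which blocks MEK, the kinase directly below Raf. Its text describes DA-5-3 as diploid, while the deposited design text calls the sequenced cells haploid.

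Receptor tyrosine kinases recruit the exchange factor *Sos1* through adaptors, and *Sos1* loads Ras with GTP. *Nf1* makes Ras hydrolyse that GTP and so switches it off. GTP-bound Ras brings Raf to the membrane, where a complex of *Shoc2*, *Mras* and the phosphatase PP1 removes an inhibitory phosphate from Raf, and active Raf phosphorylates MEK, which phosphorylates ERK. *Ptpn11* (SHP2) is a tyrosine phosphatase that is needed for full Ras activation by most receptors. In rodent ESCs, signalling through this chain drives exit from the naive state, which is why a MEK inhibitor is part of their usual medium. The libraries measure RNA only, and neither the phosphorylation nor the GTP loading of these proteins can be read from them.

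The counts on genes summed to between 15405499 and 17936544 per library, and no pair of libraries agreed within sampling noise. *Thop1* was at 370 CPM (counts scaled to library size by TMM) in WT and at 110, 92.5 and 149 in #1, #2 and #3 (log2 fold change -1.66, SE 0.29, adjusted p = 0.0187), so the targeted gene followed the labels. Of 8 embryonic stem cell markers, 7 were in the table, and their summed level, mostly *Pou5f1* (4794 CPM of 5985 in WT), was 5654 to 6742 CPM in the subclones. *Esrrb* (15.9 CPM in WT and 330, 286 and 328 in #1, #2 and #3) and *Tfcp2l1* (34.5 CPM in WT and 231, 254 and 279) were called higher by edgeR and DESeq2, with log2 fold changes of 4.30 and 2.89. Of 12 fibroblast markers, which feeder cells could carry, 11 were in the table, and their sum was 258 CPM in WT, 469 in #1, 919 in #2 and 611 in #3. All 8 fibroblast markers that were tested had log2 fold changes above 0. WT was below all 3 subclones in 8 of 8, beside 38.1% of all genes tested. By edgeR, *Col5a1* and *Fbln2* were called (2 of 8, beside 13.8% of all genes tested), and 5 of 8 passed an unadjusted p of 0.05 (34.0% of all). DESeq2 called 4 of 7 higher, beside 21.5% of the genes it tested in both directions. *Dcn*, *Lum* and *Thy1* were at 0 counts in every library. Of 8 primitive endoderm markers, 6 were tested by edgeR and 0 were called, beside 13.8% of all genes tested. DESeq2 called 0 of 5, beside 21.5% of the genes it tested. At an unadjusted p under 0.05, 4 passed in edgeR's test, beside 34.0% of all genes tested. The summed level of the 8 was 856 CPM in WT, 1224 in #1, 1368 in #2 and 1786 in #3. This sum was nearly all *Lama1* (848 CPM in WT and 1779 in #3). *Gata4* (17 counts in WT and 3, 0 and 3 in the subclones) and *Col4a1* (4.78 CPM in WT and 3.04, 1.92 and 2.78) were below WT in every subclone. Above WT in every subclone were *Sox17* (10 counts in WT and 34, 37 and 47), *Gata6* (9 counts and 63, 24 and 16), *Dab2* (0 counts and 8, 22 and 9) and *Lama1*. The part of these markers in the results below was not tested. In RNA from whole cultures, fewer cells of a type and less RNA per cell cannot be told apart.

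The comparison asked whether the RNA of the core genes differed between *Thop1*-KO and WT. A gene was called when its adjusted p-value was under 0.05 by the quasi-likelihood test of edgeR, adjusted over all genes tested by the Benjamini-Hochberg method. Since WT had 1 library, the spread came from the 3 subclones alone. None of the 8 core genes was called (0 of 8), beside 13.8% of all genes tested. At an unadjusted p under 0.05, 3 of 8 passed (*Shoc2*, *Nras* and *Ptpn11*), beside 34.0% of all genes tested. DESeq2's Wald test called 1 of 8, *Shoc2*, beside 21.5% of the genes it tested. WT lay below all 3 subclones in 5 of the core genes (*Nras*, *Braf*, *Nf1*, *Shoc2* and *Ptpn11*), and 38.1% of all genes tested had that pattern. WT lay above all 3 subclones in 2 (*Hras* and *Sos1*), a pattern held by 37.6% of all genes tested. Only *Araf* had WT inside the range of the subclones. The median log2 fold change of the 8 genes was 0.76, beside 0.06 over all genes tested. The calls hung on 1 library: without #2, edgeR called 4 of 8 (*Araf*, *Ptpn11*, *Shoc2* and *Nras*), but it then called 37.9% of all genes tested.

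**Figure D1:**
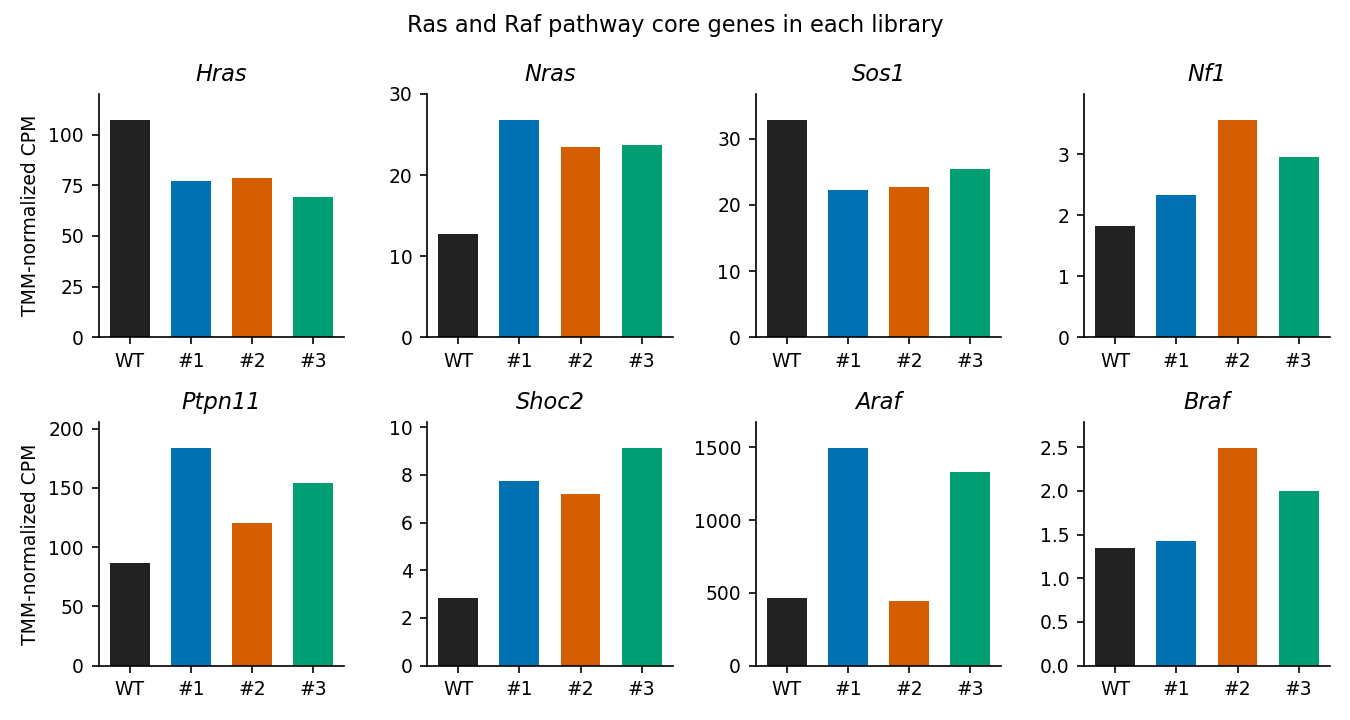
Level of each of the 8 core genes in TMM-normalized CPM (vertical axes, each starting at 0) in WT (black) and in the 3 *Thop1*-KO subclones (colours), 1 library per bar. WT is the lowest bar for *Nras*, *Braf*, *Nf1*, *Shoc2* and *Ptpn11* and the highest for *Hras* and *Sos1*, while for *Araf* #2 stands at the level of WT and #1 and #3 are about 3 times as high.

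Per unit of gene length, the core genes spanned a wide range of levels in these cells. The deposited FPKM values, which divide the counts by gene length, were used to compare levels between genes. In WT, *Araf* was at 198 FPKM and ranked 613 among the 34773 genes. *Hras* followed at 77.4 FPKM and *Ptpn11* at 15.4. *Nras* was at 9.73 FPKM and *Sos1* at 4.90, whereas *Shoc2* (0.971), *Braf* (0.561) and *Nf1* (0.192) were all under 1 FPKM. The order of the 8 genes was the same in every library, and over the 3 subclones no range overlapped that of a neighbour in the order. The closest neighbours were *Ptpn11* and *Nras*, whose lowest and highest subclone values were 21.4 and 20.6 FPKM, and *Sos1* and *Shoc2*, at 3.35 and 3.10 FPKM. In WT, *Braf* rested on 20 counts and *Nf1* on 27, with exact 95% Poisson intervals of 12.2 to 30.9 and 17.8 to 39.3 counts. Such intervals cover counting error only.

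**Figure D2:**
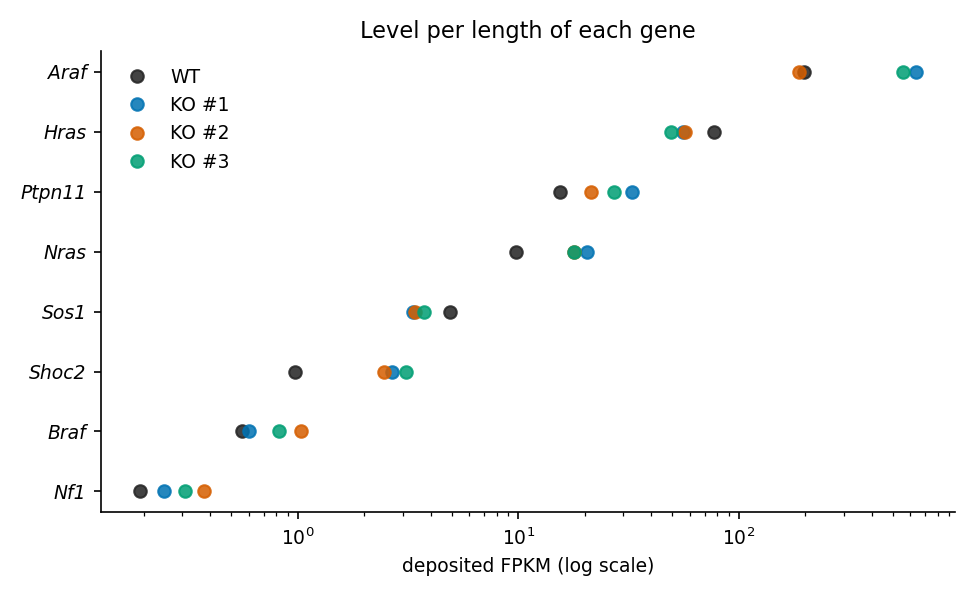
Deposited FPKM of each core gene (horizontal axis, log scale) in the 4 libraries, 1 point per library, with genes ordered by their level in WT. The genes run from *Araf* at 187 to 636 FPKM down to *Nf1* at 0.192 to 0.377 FPKM, and the subclone points of neighbouring genes do not overlap.

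*Hras* and *Nras* encode close relatives of the Ras GTPase, the switch at the head of the chain. In the coordinates of the deposited table, *Hras* occupies chromosome 1 from 214178407 to 214181686 (minus strand, 1369 bases of exons) and *Nras* chromosome 2 from 205553163 to 205560791 (plus strand, 1296 bases). Neither overlaps another gene of the table. The sequence around each start is shown because the members of this pair differed in opposite directions. From RefSeq (assembly GRCr8, a build that need not be the one used for the counts), each window covers 250 bases before and 50 bases after the start, at chr1:205729205-205729504 on the minus strand for *Hras* and chr2:193271220-193271519 on the plus strand for *Nras*, and capitals mark matches to the motifs searched.
Hras: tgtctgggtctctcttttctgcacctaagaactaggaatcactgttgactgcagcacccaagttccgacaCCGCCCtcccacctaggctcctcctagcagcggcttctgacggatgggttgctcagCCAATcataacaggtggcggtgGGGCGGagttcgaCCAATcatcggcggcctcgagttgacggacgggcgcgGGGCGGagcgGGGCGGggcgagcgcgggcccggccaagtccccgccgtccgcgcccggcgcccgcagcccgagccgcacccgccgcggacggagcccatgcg
Nras: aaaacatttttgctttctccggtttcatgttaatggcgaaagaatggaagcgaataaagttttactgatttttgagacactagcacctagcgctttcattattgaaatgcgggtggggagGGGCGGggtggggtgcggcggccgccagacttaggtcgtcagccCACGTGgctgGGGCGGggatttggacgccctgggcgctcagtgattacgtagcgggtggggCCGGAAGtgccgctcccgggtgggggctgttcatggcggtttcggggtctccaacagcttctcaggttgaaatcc

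The motifs, searched on both strands, were the GC box GGGCGG, the CCAAT box CCAAT, the ETS motif CCGGAAG, the cAMP response element TGACGTCA and the E-box CACGTG. They were found in 33.1%, 37.5%, 8.75%, 1.83% and 6.42% of the 33469 windows of the same length in the RefSeq table. The window of *Hras* held 4 GC boxes and 2 CCAAT boxes, and its GC content was 69.0%. That of *Nras* held 2 GC boxes, 1 ETS motif and 1 E-box at a GC content of 56.7%, where the median over all windows was 51.7%. In these windows no matches overlapped. A match describes the letters only and is not evidence of binding.

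*Hras* stood at 107 CPM in WT and at 77.2, 78.8 and 69.2 CPM in #1, #2 and #3. Every subclone was below WT, and the subclones were close to each other. Their mean was 75.1 ± 5.16 CPM (SD, n = 3). The spread of *Hras* between subclones, as the SD of log2 CPM, was smaller than that of most genes (percentile 9.06 of all genes tested). The log2 fold change was -0.52 with a 95% interval of -1.08 to 0.05 (SE 0.24, adjusted p = 0.175), which did not pass the threshold. *Nras* behaved the other way: it had 190 counts in WT and 450, 415 and 426 in the subclones, or 12.8, 26.8, 23.5 and 23.7 CPM. All subclones were near the same level, at a mean of 24.7 ± 1.87 CPM (SD, n = 3), and clear of WT. The fold over WT was 1.93 (95% interval 1.14 to 3.26), and edgeR's log2 fold change of 0.95 (SE 0.32, adjusted p = 0.0910, unadjusted 0.0214) missed the threshold. Without #2 it was 0.98 with an adjusted p of 0.0267 in edgeR's test.

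As a result of these opposite differences, the ratio of *Nras* to *Hras* per unit of length was 0.126 in WT and 0.367, 0.314 and 0.362 in #1, #2 and #3. *Nras* made up 11.2% of the FPKM of both genes in WT and 26.9%, 23.9% and 26.6% in the subclones. The log2 ratio differed by 1.47 between *Thop1*-KO and WT, while its SD over the subclones was 0.12. With 1 library against 3, an exact two-sided permutation test cannot give a p-value under 0.25, and that was the value it gave. *Hras* remained the more abundant of this pair in every library. The sum of both, added after the values were seen, was 87.2 FPKM in WT and 76.5, 74.8 and 67.1 FPKM in the subclones, so all subclones were lower, by less than for *Hras* alone. The sum covers *Hras* and *Nras* alone.

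**Figure D3:**
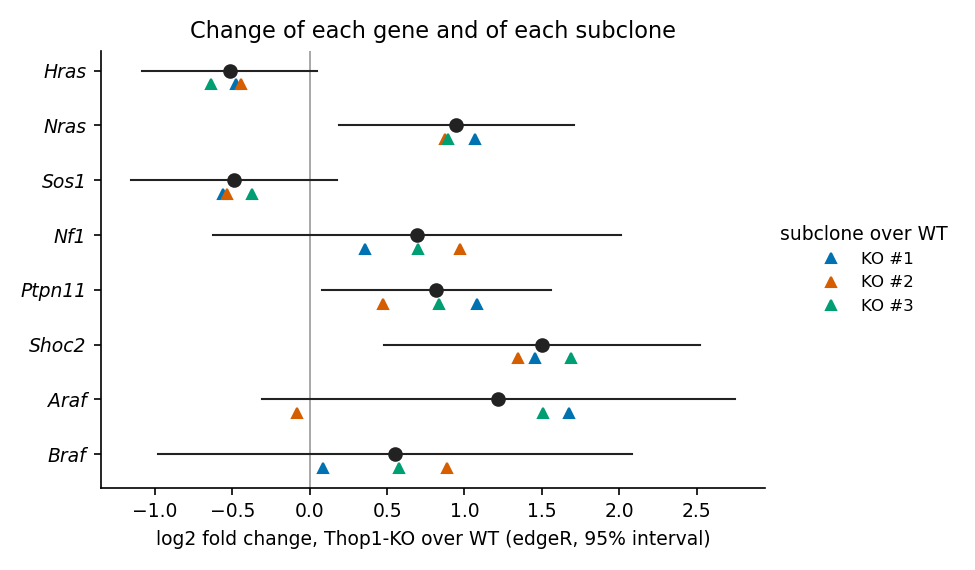
Log2 fold change of each core gene between *Thop1*-KO and WT from edgeR (black circle) with its 95% interval (line), and the log2 ratio of each subclone to WT (coloured triangles, drawn just under the circle). The intervals of *Nras*, *Ptpn11* and *Shoc2* lie above 0, and the subclones are close together for *Hras* but far apart for *Araf*, where #2 alone is below 0.

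*Sos1* and *Nf1* act on Ras from opposite sides, the former as activator and the latter as inhibitor. *Sos1* (chromosome 6, 3104861 to 3182996, minus strand, 6619 bases of exons) had 489 counts in WT and 374, 402 and 456 in the subclones. In normalized values it was at 32.9 CPM in WT and at 22.3, 22.7 and 25.4 CPM in #1, #2 and #3, a mean of 23.5 ± 1.67 (SD, n = 3). All subclones lay below WT, and the log2 fold change was -0.49 (SE 0.28, adjusted p = 0.258). With a correction of each library for gene length it was -0.90 (adjusted p = 0.0748), a setting that moved the median of all genes by -0.14. The related exchange factor *Sos2*, named after the values were seen, was at 13.8 CPM in WT and 14.3, 14.2 and 13.9 CPM in the subclones, with a log2 fold change of 0.03 (SE 0.32).

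*Nf1* (chromosome 10, 66690133 to 66928903, plus strand, 9326 bases of exons) was low in every library, with 27 counts in WT and 39, 63 and 53 in the subclones. Its level was 1.82 CPM in WT and 2.33, 3.56 and 2.95 CPM in #1, #2 and #3. WT was the lowest library, but #1 lay close to it. The log2 fold change of 0.70 had a 95% interval of -0.62 to 2.01 (SE 0.55, adjusted p = 0.403 by edgeR), which included 0, and no difference was called. *Nf1* spans *Evi2b*, *Omg* and *Evi2a* on the opposite strand, and these had 0 counts in every library. The libraries had the same order for *Nf1*, WT, #1, #3 and #2 from lowest to highest, as for the summed fibroblast markers given above. The exact 95% Poisson intervals of neighbours in this order overlapped (39.7 to 69.3 counts in #3 and 48.4 to 80.6 in #2), so counting error could change it. A link to those markers was not tested. The ratio of *Sos1* to *Nf1* per length, added after the values were seen, was 25.5 in WT and 13.5, 8.99 and 12.1 in the subclones, with a mean of 11.5 ± 2.32 (SD, n = 3). WT was outside their range, and the exact two-sided permutation test again gave 0.25, the smallest value it can give.

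*Ptpn11* (chromosome 12, 40895515 to 40955999, plus strand, 5538 bases of exons) had 1288 counts in WT and 3079, 2125 and 2776 in #1, #2 and #3. These counts gave 86.7 CPM in WT and 184, 120 and 154 CPM in the subclones, a mean of 153 ± 31.7 (SD, n = 3). WT was the lowest library, and #2 was the subclone nearest to it. The fold over WT was 2.12 in #1, 1.39 in #2 and 1.78 in #3. The log2 fold change was 0.82 with an interval of 0.08 to 1.56 (SE 0.31, adjusted p = 0.119 by edgeR, unadjusted 0.0348). Without #2 it was 0.96 (adjusted p = 0.00482), and with the correction for gene length it was 0.44 (adjusted p = 0.405).

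With all 3 subclones in edgeR, *Shoc2* had the largest log2 fold change of the 8 genes, whereas that of *Araf* was larger without #2 (1.59 against 1.58) and with limma on log2(FPKM + 1), with and without a filter (1.03 against 0.92). It occupies chromosome 1 from 274688580 to 274751816 (plus strand, 2872 bases of exons) and had 42 counts in WT against 130, 127 and 164 in the subclones. Its levels were 2.83 CPM in WT and 7.75, 7.18 and 9.13 CPM in #1, #2 and #3. The subclones, at 8.02 ± 0.999 CPM (SD, n = 3), were well apart from WT and close to each other. The fold over WT was 2.83 (95% interval 1.40 to 5.75), and the log2 fold change was 1.50 (SE 0.43). Its adjusted p was 0.0624 in edgeR's test (unadjusted 0.0106), 0.0394 in DESeq2's and 0.0121 in edgeR's without #2. The 3 genes whose log2 CPM profile over the 4 libraries was nearest to that of *Shoc2*, by Euclidean distance after centring, were *Mfsd1* (distance 0.0319), *Zfp281* (0.0638) and *Fbrs* (0.0743). Because they were chosen by profile, log2 fold changes near that of *Shoc2* follow from the choice and say nothing more about *Shoc2*. In edgeR's test *Mfsd1* (log2 fold change 1.47, adjusted p = 0.0207) and *Fbrs* (1.47, adjusted p = 0.0437) were called, and *Zfp281* (1.50, adjusted p = 0.0717) was not.

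The other subunits of the *Shoc2* complex were read after their values had been seen. *Mras*, the GTPase that binds *Shoc2*, was at 32.2 CPM in WT and 112, 48.6 and 83.6 CPM in #1, #2 and #3 (log2 fold change 1.34, SE 0.49, adjusted p = 0.108 by edgeR and 0.0180 by DESeq2). WT was again the lowest library and #2 the subclone nearest to it. The PP1 catalytic subunit genes *Ppp1ca* (log2 fold change -0.05), *Ppp1cb* (-0.63) and *Ppp1cc* (-0.09) were called by neither tool.

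*Araf* and *Braf* encode the Raf kinases that pass the signal from Ras to MEK. *Araf* occupies chromosome X from 1379194 to 1390873 (minus strand, 2333 bases of exons) and shares 5 bases with *Syn1* on the opposite strand. *Syn1* had 47 to 82 counts per library, against at least 6953 for *Araf*. *Braf* occupies chromosome 4 from 67396192 to 67520356 (minus strand, 2365 bases of exons) and overlaps no other gene. The windows around their starts are shown because the members of this pair were the farthest apart in level, at chrX:3792562-3792861 and chr4:69476882-69477181 (RefSeq, GRCr8, both on the minus strand), with the same motifs in capitals.
Araf: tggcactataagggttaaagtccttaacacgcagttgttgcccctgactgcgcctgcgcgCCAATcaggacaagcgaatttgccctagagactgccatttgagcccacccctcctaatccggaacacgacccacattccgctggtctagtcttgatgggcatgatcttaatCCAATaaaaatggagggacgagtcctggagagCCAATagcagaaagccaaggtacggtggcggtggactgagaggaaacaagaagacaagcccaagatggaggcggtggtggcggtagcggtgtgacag
Braf: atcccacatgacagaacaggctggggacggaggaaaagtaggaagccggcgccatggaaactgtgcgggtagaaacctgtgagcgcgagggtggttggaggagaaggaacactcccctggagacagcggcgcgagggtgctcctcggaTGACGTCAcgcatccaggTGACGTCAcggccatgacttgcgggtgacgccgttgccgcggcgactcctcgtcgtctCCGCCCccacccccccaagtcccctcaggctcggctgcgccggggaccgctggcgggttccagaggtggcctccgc

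The window of *Araf* held 3 CCAAT boxes and none of the other motifs, at a GC content of 54.0%. That of *Braf* held 1 GC box and 2 cAMP response elements, at a GC content of 67.0%.

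*Araf* was the core gene on which the subclones disagreed. It had 6953 counts in WT, 25056 in #1, 7820 in #2 and 23899 in #3, or 468, 1494, 442 and 1330 CPM. Relative to WT, it was 3.19-fold in #1 and 2.84-fold in #3 but 0.945-fold in #2. WT and #2 were thus at one level, and #1 and #3 at another. The highest subclone was 3.38 times the lowest, and the SD of log2 CPM between subclones was at percentile 91.2 of all genes tested. At these counts the difference between subclones was far beyond counting error (exact 95% Poisson intervals of 24750 to 25370 counts in #1 and 7648 to 7995 in #2). The log2 fold change over all subclones was 1.22 with an interval of -0.31 to 2.75 (SE 0.64, adjusted p = 0.224). Without #2 it was 1.59 (adjusted p = 6.96e-05), and it was 0.93 without #1 and 1.05 without #3, neither of which was called. In FPKM rank, *Araf* moved from 613 in WT to 547 in #2, 170 in #3 and 167 in #1. Among the embryonic stem cell markers, *Sox2* was also higher in #1 (594 CPM) and #3 (668) than in #2 (370) and WT (305), whereas *Nanog* was lower in #1 (334 CPM) and #3 (384) than in #2 (494) and WT (468), and so was *Klf4* (40.9 and 42.6 CPM against 70.0 and 64.2). These markers were named after the values were seen. *Pou5f1* (4794 CPM in WT and 4842, 3889 and 4776 in #1, #2 and #3) and *Tdgf1* (302 CPM in WT and 339, 291 and 264) did not show this split. *Esrrb* and *Tfcp2l1*, given above, were far above WT in #2 as well. The part of any of these markers in the level of *Araf* was not tested.

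*Braf* was scarce in every library, with 20 counts in WT and 24, 44 and 36 in #1, #2 and #3. Its levels were 1.35 CPM in WT and 1.43, 2.49 and 2.0 CPM in the subclones. WT was the lowest, yet #1 was within counting error of it. The log2 fold change was 0.55 (SE 0.64, adjusted p = 0.569 by edgeR), and no difference was called. As with *Nf1*, the libraries had the order WT, #1, #3 and #2, that of the summed fibroblast markers. Here too the counting intervals of neighbours overlapped (25.2 to 49.8 counts in #3 and 32.0 to 59.1 in #2), and a link to those markers was not tested. Per length, *Araf* exceeded *Braf* 352-fold in WT, 1058-fold in #1, 180-fold in #2 and 673-fold in #3. WT lay inside the range of the subclones, and the exact two-sided permutation test of the log2 ratio gave p = 1.0.

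**Figure D4:**
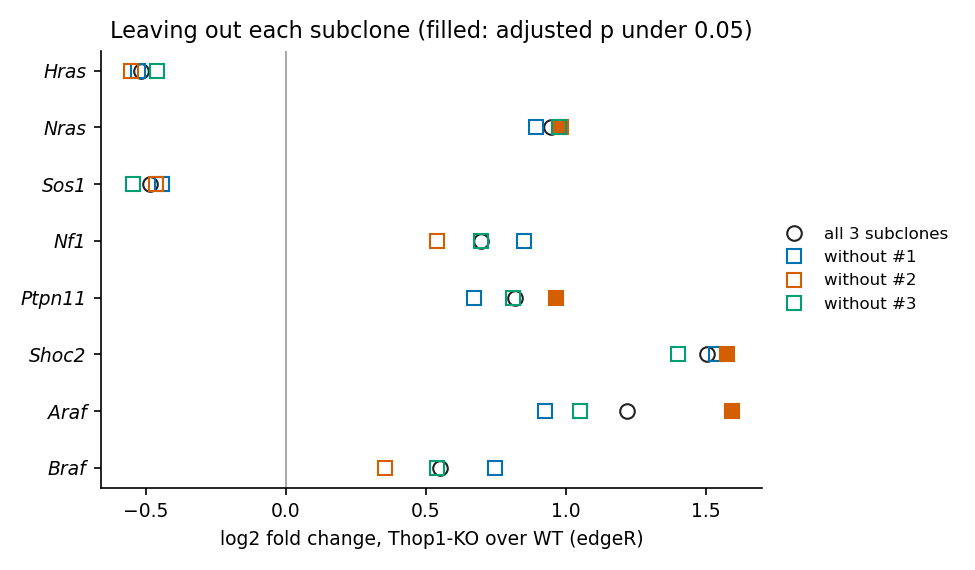
Log2 fold change of each core gene between *Thop1*-KO and WT from edgeR with all 3 subclones (circles) and with each subclone left out (squares), filled where the adjusted p-value was under 0.05. Filled squares are seen only without #2, for *Nras*, *Ptpn11*, *Shoc2* and *Araf*, and *Araf* has the widest range, from 0.93 to 1.59.

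The genes around the core were taken from 8 lists that hold 79 entries, of which 75 were in the table and 68 were tested. Of these, 9 were called higher and 2 lower in *Thop1*-KO, together 16.2%, beside 13.8% of all genes tested (8.62% called higher and 5.17% lower). Of 66 list genes with an adjusted p in DESeq2, 14 were called up and 2 down, together 16, beside the 21.5% of all genes given above. The median log2 fold change of the 68 list genes in edgeR's fit was 0.18, beside 0.06 over all genes tested. Without #3, edgeR called 1 of 65 tested, *Gab1*, beside 3.10% of all genes, and without #2 it called 28 of 66, beside the 37.9% given above.

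The adaptors couple activated receptors to Sos. Of 10 adaptors tested, 3 rose and 0 fell by edgeR's test (3 and 0 also at an unadjusted p under 0.05), with a median log2 fold change of 0.80. Of 9 with an adjusted p in DESeq2, 3 rose and 0 fell. Over all genes, edgeR called 13.8%, an unadjusted p under 0.05 was reached by 34.0%, and DESeq2 called 21.5%. *Gab1*, a docking protein that binds *Ptpn11*, had 140 counts in WT and 978, 1147 and 1354 in the subclones, a log2 fold change of 2.81 (SE 0.33, adjusted p = 0.00767). *Shc1*, which couples receptors to *Grb2* and Sos, had 1165 counts in WT and 3246, 3285 and 3184 in the subclones (log2 fold change 1.24, adjusted p = 0.0254). In both genes every subclone was far above WT. *Crk*, an SH2 and SH3 adaptor, had 61 counts in WT and 254, 349 and 327 in the subclones (log2 fold change 2.11, adjusted p = 0.0220). *Grb2*, the adaptor that carries *Sos1* to receptors, had a log2 fold change of 0.62 (SE 0.28, adjusted p = 0.173).

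Of 19 Raf scaffolds, regulators and cofactors tested, 3 rose and 1 fell by edgeR's test, beside 13.8% of all genes called, with a median log2 fold change of 0.11. *Ksr1*, a scaffold for Raf and MEK, had 1 count in WT and 36, 46 and 25 in the subclones, a ratio of 30.3 with an exact counting interval of 5.33 to 1209 (adjusted p = 0.0343). *Cnksr3*, of the connector family of scaffolds, had 12 counts in WT and 178, 87 and 124 in the subclones (log2 fold change 3.20, adjusted p = 0.0293). Both were thus scarce in WT. *Iqgap1*, a large scaffold of the ERK cascade, was abundant, with 1724 counts in WT and 5113, 5598 and 4915 in the subclones (log2 fold change 1.36, adjusted p = 0.0200). *Ywhab*, a 14-3-3 protein that binds phosphorylated Raf, fell from 3844 counts in WT to 2059, 2682 and 2385 in the subclones (log2 fold change -0.93, adjusted p = 0.0435). The members of this list thus moved in both directions.

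Among 7 other GTPase-activating proteins tested, 1 rose and 0 fell (3 and 0 at an unadjusted p under 0.05 and by DESeq2), with a median log2 fold change of 0.52. For this and the next lists, the shares over all genes were 13.8% by edgeR, 34.0% at an unadjusted p under 0.05 and 21.5% by DESeq2. *Spred2*, which brings *Nf1* to the membrane, was the 1 of 3 *Nf1* partners called, with 165 counts in WT and 617, 497 and 766 in the subclones (log2 fold change 1.69, SE 0.37, adjusted p = 0.0332). Every subclone was above WT. Of 11 other small GTPases, 1 rose and 0 fell (3 and 1 at an unadjusted p under 0.05, 3 and 0 by DESeq2). The gene that rose was *Rap2a*, a member of the Rap branch, with 37 counts in WT and 139, 146 and 172 in the subclones (log2 fold change 1.80, adjusted p = 0.0383).

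Of 11 genes for the lipid modification and delivery of Ras, 0 rose and 1 fell (0 and 2 at an unadjusted p under 0.05, 0 and 1 by DESeq2). Over all genes these shares were 13.8%, 34.0% and 21.5%, both directions together. The median log2 fold change of the list was -0.16. The gene that fell was *Lypla2*, a thioesterase that can remove palmitate from proteins, with 5251 counts in WT and 1816, 2319 and 1945 in the subclones (log2 fold change -1.61, SE 0.22, adjusted p = 0.0108). All subclones were well below WT. Among 3 other exchange factors tested by edgeR, 0 were called and 0 passed an unadjusted p of 0.05, and DESeq2 called 0 of 2. Among 4 tested relatives and partners of *Ptpn11* 0 were called by edgeR or DESeq2. WT was below all 3 subclones in 4 of 4, a pattern of 38.1% of all genes tested, 3 of 4 passed an unadjusted p of 0.05, as did 34.0% of all genes, and the median log2 fold change was 1.24.

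**Figure D5:**
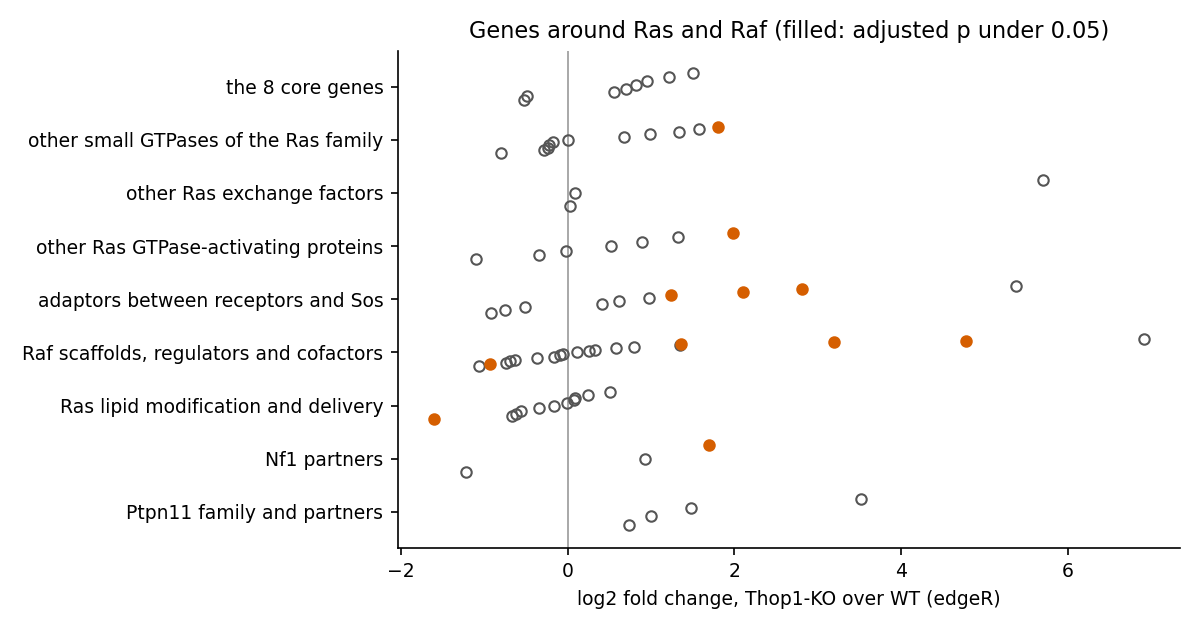
Log2 fold change between *Thop1*-KO and WT from edgeR (horizontal axis) of each tested gene of the core set and of the 8 lists around it (rows), 1 point per gene, filled orange where the adjusted p-value was under 0.05. None of the 8 core genes is filled, whereas 11 of the 68 other genes are, 9 of them to the right of 0 and 2, *Ywhab* and *Lypla2*, to the left.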

How the data were processed

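RNA-seq was made from 1 WT library and 3 *Thop1*-KO subclone libraries, which were grouped by their genotype labels. Nothing beyond the subclone number says that the 3 were cultured separately, so p-values measure only the spread between them. Per the labels, libraries were made from poly(A) RNA with the NEBNext Ultra RNA kit, and the submitters' processing notes name HISAT2 2.0.5 and featureCounts 1.5.0-p3. The genome build, annotation version and use of strand in counting are not given in the sources used here, and coordinates are those of the deposited annotation. The authors deposited raw counts per gene and FPKM values. The deposited FPKM were found to be the counts over gene length, scaled by 1 factor for each library.

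Low genes were removed with edgeR's filterByExpr (version 4.0.16, R 4.3.3, min.count 10). TMM factors were applied, groups were compared with glmQLFTest, p-values were adjusted after Benjamini and Hochberg, and an adjusted value under 0.05 made a call. The script was tested on simulated data. Intervals of fold changes are at the 95% level. Library totals were 15405499 to 17936544, which leaves counts as low as 20 (*Braf* in WT) with wide counting intervals. Ratios of related genes were compared by exact permutation. Alternatives were other scalings, DESeq2 1.42.0, other filters, limma 3.58.1 on log2(FPKM + 1) or log2(FPKM + 0.1) for genes with an FPKM of at least 1, a loess correction for gene length (span 0.3) and leaving out each subclone. Tables were made with pandas 2.3.3 and numpy 2.4.6, intervals with scipy 1.17.1 and figures with matplotlib 3.10.9, all under Python 3.11.15.

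The core genes and the lists were chosen with earlier results of these data known. The genes named are the 8 core genes, *Thop1*, the called genes of the lists, the 3 genes nearest in profile to the core gene with the largest change, and genes overlapping a core gene, unless the text says otherwise. Some genes that this rule names are not reported here. *Rasgrf2*, *Gab3*, *Crkl*, *Pecam1*, *Zfp42* and *Col1a2* of the lists were not analysed here.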

Additional observations from a re-analysis of the deposited data

How the results depend on the processing

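No core gene changed the sign of its log2 fold change under any of the 13 alternatives (11 for *Nf1*, which the limma filter removed). The lowest and highest log2 fold changes were -0.62 and -0.45 for *Hras*, 0.85 and 1.01 for *Nras*, 0.93 and 1.59 for *Araf*, 0.22 and 0.75 for *Braf*, -0.90 and -0.40 for *Sos1*, 0.14 and 0.85 for *Nf1*, 0.92 and 1.58 for *Shoc2* and 0.44 and 0.96 for *Ptpn11*. The number of core genes called was 1 with DESeq2 and ran from 0 to 4 with each subclone left out, 4 being without #2. Over all genes, leaving out a subclone gave 457 (without #3) to 5572 (without #2) calls, against 2072 with all, and the list genes called ran from 1 to 28, against 11. With limma on log2(FPKM + 1), 1266 genes and 6 list genes were called, on log2(FPKM + 0.1) 1116 and 3, and without a filter 845 and 0; fold changes on these scales understate low genes. The share of calls that were higher in *Thop1*-KO, 62.5% as reported, was 52.7% with the gene length correction, 71.2% with log2(FPKM + 0.1) and 25.2% with limma without a filter. *Thop1* had adjusted p-values of 0.0596, 0.0810 and 0.290 in the 3 limma settings and passed in the other 10. The difference between *Thop1*-KO and WT in the log2 ratio of *Nras* to *Hras* was 1.42 to 1.54 when a subclone was left out. For the log2 ratio of *Braf* to *Araf*, this difference was -0.52 with all subclones. It ran from -1.26 without #2 to 0.017 without #1, where its sign turned. The causes were not tested. Library totals differed little, and the lowest counts of core genes in WT were those of *Braf*, *Nf1* and *Shoc2* (20, 27 and 42). No paired analysis was possible because WT has 1 library, so the groups share fewer than 2 replicate numbers.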

Other observations

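The genes beside the core genes in the deposited annotation were read as well, and those named here were chosen after their values were seen. *Timp1*, a secreted inhibitor of metalloproteinases, lies 9810 bases from *Araf* and was at 480 CPM in WT and 268, 178 and 193 CPM in the subclones (log2 fold change -1.17, adjusted p = 0.0380), without the split that *Araf* shows. *Rab11fip4*, 13495 bases from *Nf1*, was at 2.69 CPM in WT and 20.1, 19.6 and 18.4 CPM in the subclones (log2 fold change 2.84, adjusted p = 0.0102).

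The 3 genes whose profile over the 4 libraries was nearest to that of *Araf* by the same distance, also read after the values were seen, were *Gaa* (0.120), *H6pd* (0.132) and *Zfp523* (0.141). *Gaa*, the lysosomal alpha-glucosidase, was at 74.9 CPM in WT and 217, 70.9 and 202 CPM in #1, #2 and #3. That #2 was at the level of WT there too follows from the choice by profile. Their adjusted p-values were 0.238, 0.266 and 0.224 in edgeR's test.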
